A study of Arabidopsis thaliana with 6 samples.

Results

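A group of 63 genes was nearly confined to the ovules of PRP8Aa prp8bb plants. The genes were chosen by their measured levels, as counts per 1000000 gene counts of a library (CPM). A gene entered the group when it had at least 5 counts in each PRP8Aa prp8bb library and its mean CPM over the WT libraries was at most 10% of its mean over the PRP8Aa prp8bb libraries. Genes of the plastid and mitochondrial genomes and the clock gene PRR5 (AT5G24470) were left out. Of 33977 genes in the count table, 19156 reached the count minimum, and the 63 members were 0.329% of these. Since this contrast selected the members, their levels and fold changes are described and not tested.

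The ovules came from stage 13 to 14 flowers of 6-week-old Arabidopsis thaliana plants, at which stage the embryo sac is mature. The PRP8Aa prp8bb plants carried T-DNA insertions and were, as the name is written, heterozygous at PRP8A and homozygous at PRP8B. Their ovules were, per the labels, a mixture of PRP8A;prp8b and prp8a;prp8b ovules. That split is of the haploid embryo sac, while the maternal tissue of every ovule has the genotype of the plant. PRP8B was thus disrupted throughout, and PRP8A in part of the embryo sacs and on one chromosome copy of the maternal tissue. The WT ovules came from plants with no insertion. PRP8 is the large protein at the catalytic core of the spliceosome, and each group had 3 libraries that the labels call biological replicates, without saying whether these came from separate plants.

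The stigma is the receptive tip of the pistil, and its papilla cells capture and hydrate pollen. In Brassica, SLR1 is a secreted glycoprotein of papilla cells that is related to the receptor of self-incompatibility and binds the pollen coat. Ovules lie inside the ovary, below the stigma and style, and were dissected from the flowers. In bulk RNA of this kind, fewer cells of a type and less RNA per cell cannot be told apart.

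Gene counts totalled 12644525, 11278367 and 11261844 in PRP8Aa prp8bb replicates 1 to 3, and 8497702, 12436159 and 12460805 in WT replicates 1 to 3. Mitochondrial genes took 14.5% of the counts in PRP8Aa prp8bb replicate 2, against 2.41% to 6.51% in the other 5 libraries. Even numbers made up 77.6% of the gene counts above 0 in WT replicate 1, and 47.7% to 48.6% in the other libraries. Doubling every count of a library leaves its CPM unchanged, but not every count of WT replicate 1 was even. AT2G33850, a gene of a single exon bin, had 319 WT counts in the gene counts and 235 in the bin counts. The depth of WT replicate 1 may therefore be below its total. Counts and counting intervals below use the counts as deposited. The 3′ part of PRP8B set PRP8Aa prp8bb replicate 1 apart from the other libraries of its label. The 9 of 26 exon bins nearest its 3′ end held 31.7%, 6.56% and 17.8% of its bin counts in PRP8Aa prp8bb replicates 1 to 3, and 27.5%, 35.2% and 37.6% in WT replicates 1 to 3. The library labelled PRP8Aa prp8bb replicate 1 thus lay within the WT range, although its label has PRP8B disrupted. Over the whole gene, PRP8B averaged 41.6 ± 3.67 CPM in PRP8Aa prp8bb ovules and 37.5 ± 2.04 CPM in WT ovules (SD, n = 3 each; edgeR log2 fold change 0.22, SE 0.10, adjusted p = 0.251). PRP8A averaged 900.1 ± 59.1 CPM in PRP8Aa prp8bb ovules and 1186 ± 53.7 CPM in WT ovules (SD, n = 3 each; edgeR log2 fold change -0.32, SE 0.10, adjusted p = 0.105).

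The 63 members together had 1199, 965.7 and 1182 CPM in PRP8Aa prp8bb replicates 1 to 3, against 81.7, 21.5 and 50.1 CPM in WT replicates 1 to 3. The sums in PRP8Aa prp8bb replicates 2 and 3, whose PRP8B 3′ share lay below the WT range, were of the same order as in replicate 1. The rule asks for counts in each of these libraries, so it partly fixes this. With replicate 1 left out, the rule gave 75 genes, 59 of them among the 63. The WT remainder was not spread evenly, and WT replicate 1 had the highest sum and WT replicate 2 the lowest. The lowest PRP8Aa prp8bb library lay above the highest WT library for each of the 63 members, a separation that 8.29% of the 19297 genes tested showed and that the rule largely fixes.

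**Figure D1:**
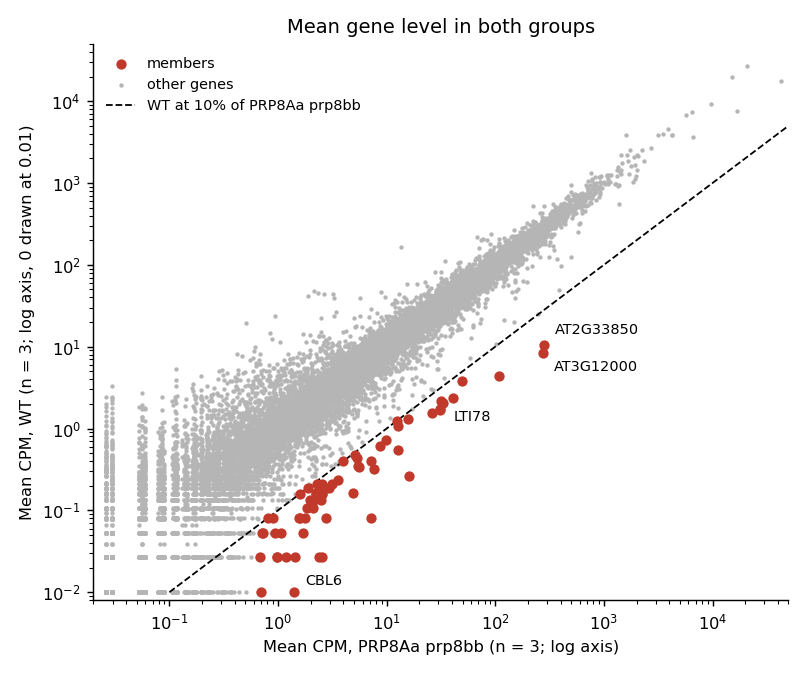
Mean CPM of each gene in PRP8Aa prp8bb ovules (horizontal, log axis) against WT ovules (vertical, log axis, 0 drawn at 0.01), each over 3 libraries. The 63 members (red) lie on or below the dashed line at 10%; grey points below that line did not reach 5 counts in each PRP8Aa prp8bb library.

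A few genes held most of the signal. The members' mean level in PRP8Aa prp8bb ovules ran from 0.684 to 279.7 CPM with a median of 2.57 CPM. There were 3 members at 100 CPM or more, 12 between 10 and 100 CPM, 39 between 1 and 10 CPM and 9 under 1 CPM. AT2G33850 and AT3G12000 together made up 50.0% of the members' summed CPM, and 59.6% with AT4G11290. Without these first 2 genes the members summed to 602.6, 489.6 and 582.9 CPM in PRP8Aa prp8bb replicates 1 to 3, against 46.6, 18.4 and 31.5 CPM in WT replicates 1 to 3. Of the 63, 62 were annotated as protein coding and 1 as a microRNA precursor.

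AT3G12000 is annotated as the S-locus related gene SLR1 (chromosome 3, minus strand, a gene of a single exon bin). It had 274.7, 271.6 and 286.9 CPM in PRP8Aa prp8bb replicates 1 to 3, against 15.3, 1.29 and 8.27 CPM in WT replicates 1 to 3. Its PRP8Aa prp8bb values lay within a few percent of each other, while its WT values spread over more than 10-fold. The mean was 277.7 ± 8.10 CPM in PRP8Aa prp8bb ovules and 8.28 ± 7.01 CPM in WT ovules (SD, n = 3 each), a ratio of 33.5.

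AT2G33850 (chromosome 2, minus strand, a single exon bin) encodes a protein like E6, a protein known from cotton fibres. It had 322.1, 204.5 and 312.4 CPM in PRP8Aa prp8bb replicates 1 to 3, against 19.8, 1.77 and 10.4 CPM in WT replicates 1 to 3. It was lowest in PRP8Aa prp8bb replicate 2, as SLR1 was, but with a wider gap to the other libraries of that group. The mean was 279.7 ± 65.3 CPM in PRP8Aa prp8bb ovules and 10.6 ± 9.0 CPM in WT ovules (SD, n = 3 each), a ratio of 26.3. Per kilobase of annotated exon it was the highest member, at 229.6 CPM per kb in PRP8Aa prp8bb ovules, followed by SLR1 at 173.9 CPM per kb.

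The stigma list held a further member, the peroxidase AT5G19880 (chromosome 5, minus strand). Class III peroxidases are secreted haem enzymes that act on cell wall phenols. AT5G19880 had 46.4, 33.9 and 41.7 CPM in PRP8Aa prp8bb replicates 1 to 3, against 4.82, 0.241 and 1.93 CPM in WT replicates 1 to 3. As with SLR1, its WT libraries differed more than 10-fold. The other 60 members were on none of the marker lists, which covered 11 tissues or processes. AT3G12000 and AT2G33850 were named with the rule itself, and the list, with AT5G19880 on it, was written with earlier results of these data known. The place of these 3 members on the stigma list is therefore no independent sign of tissue.

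The sequences before the annotated starts of these 3 genes, and of the cold-inducible LTI78 described further on, are shown because the genes moved together in the WT libraries or carry a known motif. Each gives the 250 bases before the gene start, on the gene's strand, from RefSeq TAIR10.1. Capitals mark TATAAA in AT3G12000 and AT5G19880, and CCGAC, the core of the drought-responsive element (DRE), in LTI78. The regions are chr3:3819643-3819892 (minus strand), chr2:14322083-14322332 (minus strand), chr5:6722478-6722727 (minus strand) and chr5:21240467-21240716 (plus strand), in the order printed.
AT3G12000: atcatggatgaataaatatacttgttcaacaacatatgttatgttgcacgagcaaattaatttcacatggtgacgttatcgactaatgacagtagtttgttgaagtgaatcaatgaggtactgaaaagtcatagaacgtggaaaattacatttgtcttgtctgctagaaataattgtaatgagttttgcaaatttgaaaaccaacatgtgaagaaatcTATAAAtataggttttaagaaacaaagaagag
AT2G33850: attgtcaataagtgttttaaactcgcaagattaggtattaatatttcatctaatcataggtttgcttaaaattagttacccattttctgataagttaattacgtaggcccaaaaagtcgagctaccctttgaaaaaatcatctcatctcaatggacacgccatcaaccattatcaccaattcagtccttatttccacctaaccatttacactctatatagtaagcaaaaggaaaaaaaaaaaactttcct
AT5G19880: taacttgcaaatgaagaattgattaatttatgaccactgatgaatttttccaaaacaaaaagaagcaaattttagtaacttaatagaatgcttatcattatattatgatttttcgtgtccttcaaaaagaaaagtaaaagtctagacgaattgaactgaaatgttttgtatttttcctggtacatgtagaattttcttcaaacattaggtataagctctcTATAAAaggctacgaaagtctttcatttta
LTI78: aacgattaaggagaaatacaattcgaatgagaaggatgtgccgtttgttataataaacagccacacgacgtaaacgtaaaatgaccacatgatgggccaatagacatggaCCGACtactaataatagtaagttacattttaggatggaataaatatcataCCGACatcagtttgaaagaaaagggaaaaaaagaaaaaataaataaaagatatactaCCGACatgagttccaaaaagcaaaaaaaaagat

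TATAAA began 32 bases before the start of AT3G12000 and 30 bases before that of AT5G19880. CCGAC began 140, 90 and 33 bases before the start of LTI78. Among 62 member promoters of this length, 54.8% held TATAAA on either strand, against 47.3% of 27443 promoters genome-wide, and 9.68% held CCGAC, against 11.97% genome-wide. The evening element AAATATCT was in 6.45% of member promoters and 4.79% of all. The G-box CACGTG was in 12.9% of member promoters and 6.49% of all. The W-box TTGACC was in 12.9% of member promoters and 12.2% of all, and the MYB site CAACTG in 6.45% of member promoters and 6.21% of all. The GCC-box GCCGCC was in no member promoter and in 1.87% of all. The G-box matches were in 8 members, among them the late embryogenesis abundant genes AT5G53820 and AT1G52680. A match is a string of letters in this window and was not tested as a binding site.

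Other peroxidase genes were among the members. AT4G11290 had 122.8, 84.9 and 114.0 CPM in PRP8Aa prp8bb replicates 1 to 3, against 8.47, 0.804 and 3.85 CPM in WT replicates 1 to 3. Only AT2G33850 and AT3G12000 were higher among the members, and its WT libraries kept the order of those of SLR1. AT4G17690 was much lower, at 1.58, 0.621 and 0.977 CPM in PRP8Aa prp8bb replicates 1 to 3, against 0, 0.0804 and 0.0803 CPM in WT replicates 1 to 3.

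Genes for membrane proteins and calcium signals made up a further group. MLO6 encodes a seven-transmembrane protein of the MLO family, some of whose members confer susceptibility to powdery mildew. It had 56.2, 39.6 and 53.4 CPM in PRP8Aa prp8bb replicates 1 to 3, against 5.88, 0.804 and 4.82 CPM in WT replicates 1 to 3. AT2G17000, for a mechanosensitive ion channel, had 38.0, 22.9 and 31.7 CPM in PRP8Aa prp8bb replicates 1 to 3, against 2.82, 0.643 and 1.52 CPM in WT replicates 1 to 3. In both genes WT replicate 2 was the lowest library. AT4G00910, for a malate transporter of the aluminium-activated family, had 9.09, 15.1 and 13.7 CPM in PRP8Aa prp8bb replicates 1 to 3, against 1.41, 0.0804 and 0.161 CPM in WT replicates 1 to 3. AT1G21550, for an EF-hand calcium-binding protein, had 256 counts over the PRP8Aa prp8bb libraries and 3 over the WT libraries. Scaled by library totals this is a ratio of 81.0, with an exact 95% counting interval from 27.4 to 395.3.

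In the gene counts, 2 members had no count in any WT library, and CBL6 was the more abundant of them. It encodes a calcineurin B-like calcium sensor, a class of protein that activates partner kinases. It had 32, 6 and 13 counts in PRP8Aa prp8bb replicates 1 to 3. Against a floor of 3 counts over the WT group this is at least 15.6-fold higher in the gene counts. In the exon bin counts, where a fragment can enter several bins, CBL6 had 107 over the PRP8Aa prp8bb libraries and 10 over the WT libraries, and all of these 10 were in WT replicate 2. The glycosyltransferase gene AT2G38152 had 14, 6 and 5 counts in PRP8Aa prp8bb replicates 1 to 3, at least 7.73-fold higher on the same floor. These floors and intervals cover counting error only. A further 19 members had 1 to 3 WT counts in all.

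Metabolic enzymes were represented by acyl and methyl transferases and by cytochromes P450. AT5G23970, for an acyltransferase of the HXXXD type, had 28.5, 29.9 and 36.0 CPM in PRP8Aa prp8bb replicates 1 to 3, against 3.30, 0.965 and 2.17 CPM in WT replicates 1 to 3. It is the next gene after TPS21, a terpene synthase gene of the stigma, which did not share its pattern. TPS21 had 398.8, 224.9 and 338.9 CPM in PRP8Aa prp8bb replicates 1 to 3, against 389.2, 383.2 and 396.4 CPM in WT replicates 1 to 3 (edgeR log2 fold change -0.23, SE 0.14, adjusted p = 0.417). AT1G21540, for an AMP-dependent ligase, had 26.1, 35.6 and 31.8 CPM in PRP8Aa prp8bb replicates 1 to 3, against 4.001, 0 and 1.204 CPM in WT replicates 1 to 3. The group also held IGMT5, a methyltransferase of indole glucosinolates, at 7.19 CPM on average in PRP8Aa prp8bb ovules and 0.3997 CPM in WT ovules. CYP83A1, which acts in the synthesis of aliphatic glucosinolates, was lower, with 34 counts over the PRP8Aa prp8bb libraries and 1 over the WT libraries. CYP705A2 had 90 counts over the PRP8Aa prp8bb libraries and 1 over the WT libraries, and the pseudogene CYP79A3P had 103 over the PRP8Aa prp8bb libraries and 7 over the WT libraries.

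Wall and cuticle genes were mostly of low level. AT1G05450, for a lipid-transfer protein, had 11.2, 12.9 and 14.1 CPM in PRP8Aa prp8bb replicates 1 to 3, against 1.18, 0.643 and 1.36 CPM in WT replicates 1 to 3. The pectin methylesterase gene AT1G23200 averaged 5.44 CPM in PRP8Aa prp8bb ovules and 0.346 CPM in WT ovules. SHN1, an ERF transcription factor that promotes wax and cutin synthesis, had 12, 17 and 12 counts in PRP8Aa prp8bb replicates 1 to 3 and 1 count over the WT libraries. EXPA24 encodes an expansin, a protein that loosens walls, and averaged 2.30 CPM in PRP8Aa prp8bb ovules and 0.210 CPM in WT ovules.

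A set of 5 members encodes late embryogenesis abundant proteins or proteins of the response to low temperature and salt. LTI78, also called RD29A, is a standard reporter of cold and drought. It had 22.2, 45.7 and 30.7 CPM in PRP8Aa prp8bb replicates 1 to 3, against 2.59, 1.85 and 1.69 CPM in WT replicates 1 to 3. Unlike the stigma genes, it was highest in PRP8Aa prp8bb replicate 2 and similar in all WT libraries. AT4G30650, of the low temperature and salt family, had 22.4, 9.04 and 15.4 CPM in PRP8Aa prp8bb replicates 1 to 3, against 0.706, 1.53 and 1.69 CPM in WT replicates 1 to 3. It ran the other way among the PRP8Aa prp8bb libraries, with the lowest value in replicate 2. AT5G53820 had 13.9, 10.5 and 13.3 CPM in PRP8Aa prp8bb replicates 1 to 3, against 1.18, 1.53 and 1.04 CPM in WT replicates 1 to 3.

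Other cold genes were listed after the values had been seen and were therefore not tested as a list. Of 12 such genes that are not members, 9 had all PRP8Aa prp8bb libraries above all WT libraries, a separation found in 8.29% of all genes tested. COR15A averaged 29.2 ± 2.55 CPM in PRP8Aa prp8bb ovules and 5.33 ± 2.17 CPM in WT ovules, and KIN1 averaged 8.07 ± 1.96 CPM in PRP8Aa prp8bb ovules and 1.56 ± 0.507 CPM in WT ovules (SD, n = 3 each). Of the CBF genes, whose products bind the DRE, CBF2 averaged 7.26 ± 1.17 CPM in PRP8Aa prp8bb ovules and 7.77 ± 1.68 CPM in WT ovules, and CBF3 averaged 10.4 ± 4.42 CPM in PRP8Aa prp8bb ovules and 3.36 ± 1.87 CPM in WT ovules (SD, n = 3 each). In the edgeR fit over all genes, CBF1 (adjusted p = 0.167), CBF2 (0.973) and CBF3 (0.101) did not pass, while COR15A (0.000668) and KIN1 (0.00174) did. RD29B, which is best known for its response to abscisic acid, had 1 count in PRP8Aa prp8bb replicate 1 and 0 in the other 5 libraries.

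AT3G28840 and AT3G28770 belong to a family named only by its domain of unknown function, DUF1216, and lie 34.9 kb apart on chromosome 3 with 6 genes between them. AT3G28840 had 32.0, 19.0 and 28.0 CPM in PRP8Aa prp8bb replicates 1 to 3, against 2.59, 0.804 and 1.204 CPM in WT replicates 1 to 3. AT3G28770 had 9.81, 5.67 and 7.64 CPM in PRP8Aa prp8bb replicates 1 to 3, against 0.471, 0.241 and 0.241 CPM in WT replicates 1 to 3. Of the 9 other genes annotated with this domain, also looked up after the values had been seen, 6 had all PRP8Aa prp8bb libraries above all WT libraries, against 8.29% of all genes tested. AT3G28790 averaged 148.7 ± 43.9 CPM in PRP8Aa prp8bb ovules and 20.3 ± 6.35 CPM in WT ovules, and its WT mean was 13.6% of the PRP8Aa prp8bb mean. AT3G28780 was at 12.4% and AT3G28980 at 17.4%, both above the limit, and AT3G28810 was at 90.3%.

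Transcription regulators among the members were few and low. The homeodomain-like gene AT2G40260 averaged 8.78 CPM in PRP8Aa prp8bb ovules and 0.610 CPM in WT ovules. MAF5, a MADS-box gene of the FLC clade of flowering repressors, had 6.96, 3.55 and 5.42 CPM in PRP8Aa prp8bb replicates 1 to 3, against 0.118, 0.804 and 0.401 CPM in WT replicates 1 to 3. AT4G13266, for an ankyrin repeat protein, was the highest member with no assigned class, at 21.6, 10.8 and 15.8 CPM in PRP8Aa prp8bb replicates 1 to 3, against 0.235, 0 and 0.562 CPM in WT replicates 1 to 3. Pollen functions are known for 2 low members. GNL2, needed for pollen germination, had 21, 27 and 17 counts in PRP8Aa prp8bb replicates 1 to 3 and 4 over the WT libraries. LARP6c, needed for pollen tube guidance, had 6, 14 and 5 counts in PRP8Aa prp8bb replicates 1 to 3 and 2 over the WT libraries.

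**Figure D2:**
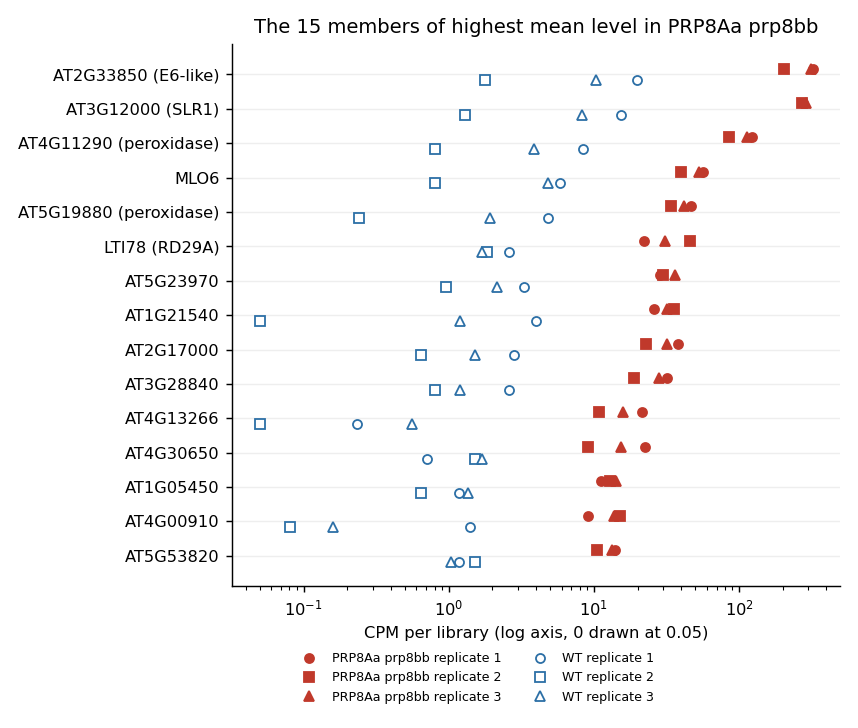
CPM in each library (log axis, 0 drawn at 0.05) for the 15 members of highest mean level in PRP8Aa prp8bb ovules; filled red marks are PRP8Aa prp8bb libraries and open blue marks are WT libraries, with the mark shape giving the replicate number. For the upper 5 genes the WT libraries spread widely with replicate 2 lowest, while the PRP8Aa prp8bb libraries lie close together.

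The remaining WT signal was uneven in a way that differed between genes. For the 15 members with at least 20 WT counts, the share of the summed WT CPM that each WT library held was compared with the 33.3% of an equal split. WT replicate 1 was the highest library in 11 of these and WT replicate 2 the lowest in 11. SLR1 had 61.6%, 5.18% and 33.3% of its WT CPM in WT replicates 1 to 3, AT2G33850 had 62.0%, 5.55% and 32.5%, and AT5G19880 had 69.0%, 3.45% and 27.5%. These 3 genes of the stigma list thus had nearly one profile over the WT libraries. LTI78 had 42.3%, 30.2% and 27.5%, and AT4G30650 had 18.0%, 39.0% and 43.0%, so neither of these cold genes had it. The profile was not confined to the stigma genes. AT4G11290 had 64.5%, 6.12% and 29.3% in WT replicates 1 to 3, AT1G21540 had 76.9%, 0% and 23.1%, and MLO6 had 51.2%, 6.99% and 41.9%.

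BAN, the gene for anthocyanidin reductase of the seed coat endothelium, ran the opposite way over the WT libraries. It had 3.56, 1.06 and 2.31 CPM in PRP8Aa prp8bb replicates 1 to 3, against 16.0, 74.2 and 45.1 CPM in WT replicates 1 to 3. Over WT replicates 1 to 3 it was thus lowest where the stigma genes were highest and highest where they were lowest. The mitochondrial share was also highest in WT replicate 1 (6.51%) and lowest in WT replicate 2 (2.41%). The part of these in the uneven WT signal was not tested.

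**Figure D3:**
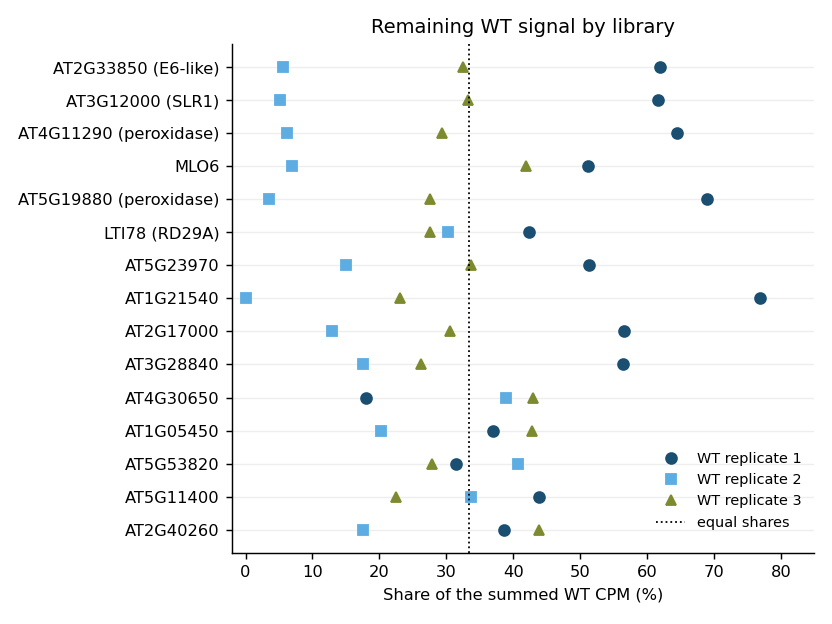
Share of the summed WT CPM (%) held by each WT library for the 15 members with at least 20 WT counts; the dotted line marks equal shares. The stigma genes, AT4G11290 and AT1G21540 have over 60% in WT replicate 1 and under 7% in WT replicate 2, unlike LTI78, AT4G30650 and AT5G53820.

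Among the PRP8Aa prp8bb libraries, replicate 1 was the highest for 31 members, replicate 2 for 14 and replicate 3 for 18, and replicate 2 was the lowest for 31. The highest library exceeded the lowest by a median of 1.76-fold, from 1.05-fold for CYP705A2 to 6.6-fold for AT5G25970. AT5G25970, annotated with a glycosyltransferase domain, had 37, 5 and 22 counts in PRP8Aa prp8bb replicates 1 to 3. AT3G22142, for a lipid-transfer protein, ran the other way with 7, 30 and 16 counts. Beside this, the pollen list summed to 1314, 448.1 and 984.2 CPM in PRP8Aa prp8bb replicates 1 to 3, against 673.0, 703.8 and 695.5 CPM in WT replicates 1 to 3, so it too was lowest in the PRP8Aa prp8bb replicate 2 library. Its part in the order of the members was not tested.

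Marker genes of several tissues that are not members were then examined. Across 19297 genes, edgeR's quasi-likelihood test called 589 higher in PRP8Aa prp8bb ovules (3.05%) and 539 lower (2.79%) at an adjusted p under 0.05, with a median log2 fold change of -0.01. On the stigma list, 3 genes that are not members could be tested, and 2 rose. ACA13, a calcium pump of papilla cells, averaged 38.5 ± 5.21 CPM in PRP8Aa prp8bb ovules and 16.6 ± 1.101 CPM in WT ovules (SD, n = 3 each; log2 fold change 1.28, SE 0.11, edgeR adjusted p = 0.000309). GRI was on the list only because its annotated product names the stigma-specific STIG1 family. It averaged 103.3 ± 20.6 CPM in PRP8Aa prp8bb ovules and 67.5 ± 4.97 CPM in WT ovules (SD, n = 3 each; log2 fold change 0.68, SE 0.11, edgeR adjusted p = 0.00692). The call of GRI was lost without WT replicate 3 (adjusted p = 0.0579, edgeR) or PRP8Aa prp8bb replicate 3 (0.054). TPS21, given with its neighbour above, did not pass. The other 5 STIG1-family genes had no count in any of the 6 libraries. Without members, the stigma list summed to 562.0, 338.8 and 487.4 CPM in PRP8Aa prp8bb replicates 1 to 3, against 469.7, 473.1 and 478.5 CPM in WT replicates 1 to 3, ranges that overlap. Most of each sum was TPS21, at 224.9 to 398.8 CPM in PRP8Aa prp8bb libraries and 383.2 to 396.4 CPM in WT libraries.

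Of 16 tested genes of style, transmitting tract and carpel, 5 rose, none fell and 11 did not pass. The list median was 0.56 on the log2 scale. STY2, which directs style development, averaged 3.13 ± 0.492 CPM in PRP8Aa prp8bb ovules and 0.507 ± 0.249 CPM in WT ovules (SD, n = 3 each; log2 fold change 2.61, SE 0.39, edgeR adjusted p = 0.00449). BEE1 (log2 fold change 1.48), SPT (0.73) and AGP4 (1.27) rose as well, and the fifth, NGA4, rose by 2.97 from very few counts. NGA4 was lost with WT replicate 2 or 3 or any PRP8Aa prp8bb replicate left out (edgeR adjusted p from 0.0541 to 0.145). AGP4 was lost with any WT replicate or PRP8Aa prp8bb replicate 1 or 2 left out (0.054 to 0.119), and SPT without WT replicate 3 (0.0743). The list's summed level was 289.4, 276.8 and 299.2 CPM in PRP8Aa prp8bb replicates 1 to 3, against 234.7, 251.0 and 256.1 CPM in WT replicates 1 to 3.

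Of 16 tested pollen genes, 4 rose, none fell and 12 did not pass. PPME1, a pectin methylesterase of pollen tubes, averaged 60.1 ± 28.8 CPM in PRP8Aa prp8bb ovules and 12.9 ± 3.95 CPM in WT ovules (SD, n = 3 each; log2 fold change 2.28, SE 0.39, edgeR adjusted p = 0.0241). TIP1;3 (log2 fold change 3.34), CALS5 (1.09) and BUPS2 (0.72) rose as well. PPME1 was lost without WT replicate 2 or 3 or PRP8Aa prp8bb replicate 3 (edgeR adjusted p from 0.0814 to 0.108), and also with no filter on low counts (0.0773). TIP1;3 was lost without WT replicate 2 or 3 (0.0524 and 0.0849), and BUPS2 without WT replicate 2 or 3 or PRP8Aa prp8bb replicate 1 or 3 (0.0928 to 0.177). The list had 8 genes called without PRP8Aa prp8bb replicate 2, its lowest library.

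Of 11 genes of nectary, petal and stamen, 3 rose, none fell and 8 did not pass. TPS10, a terpene synthase gene, averaged 31.2 ± 1.51 CPM in PRP8Aa prp8bb ovules and 7.82 ± 4.29 CPM in WT ovules (SD, n = 3 each; log2 fold change 2.11, SE 0.34, edgeR adjusted p = 0.0127). MYB24, a jasmonate-responsive regulator of stamens, rose by 3.17 and the petal and stamen identity gene PI by 1.36. TPS10 was lost without WT replicate 3 (edgeR adjusted p = 0.0756) or PRP8Aa prp8bb replicate 3 (0.0589). MYB24 was lost without WT replicate 3 or any PRP8Aa prp8bb replicate (0.0514 to 0.163), and PI without WT replicate 2 or 3 or any PRP8Aa prp8bb replicate (0.0573 to 0.132). Of 5 tested tapetum genes none rose and QRT3 fell by 1.29, while 10 others of that list, among them A9 and DYT1, were too low to test.

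The label of the tissue was checked on ovule genes. All 11 genes of the ovule and integument list were measured in both groups, 5 of them fell and none rose. STK, the ovule identity gene, averaged 79.5 ± 13.7 CPM in PRP8Aa prp8bb ovules and 128.8 ± 19.6 CPM in WT ovules (SD, n = 3 each; log2 fold change -0.63, SE 0.13, edgeR adjusted p = 0.0166). BAN fell by 4.21, TTG2 by 3.14, TT2 by 2.65 and SHP2 by 0.42 on the log2 scale. TTG2 kept its call in each fit without 1 library, and the others lost theirs in at least 2 of those fits, STK without WT replicate 3 (edgeR adjusted p = 0.0791) or PRP8Aa prp8bb replicate 3 (0.112), and BAN without WT replicate 3 or any PRP8Aa prp8bb replicate (0.0729 to 0.133). BAN was also lost with no filter on low counts (0.0784). TT2 was lost without WT replicate 2 or 3 or PRP8Aa prp8bb replicate 2 or 3 (0.0829 to 0.197), and SHP2 without WT replicate 2 or 3 or any PRP8Aa prp8bb replicate (0.0681 to 0.196). The list summed to 857.8, 664.2 and 830.3 CPM in PRP8Aa prp8bb replicates 1 to 3, against 858.4, 1326 and 1137 CPM in WT replicates 1 to 3.

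Of 6 egg apparatus genes, 4 fell and none rose, and EC1.1 and EC1.4, secreted egg cell proteins, kept their calls in each fit without 1 library. EC1.4 averaged 0.967 ± 0.267 CPM in PRP8Aa prp8bb ovules and 3.87 ± 0.588 CPM in WT ovules (SD, n = 3 each). Of 5 early seed genes, MEA, FIS2 and FWA fell and none rose, and each of these calls was lost in at least 4 of the 6 fits without 1 library. Of 9 evening clock genes, 7 rose and none fell. The smallest p was that of GI (log2 fold change 1.31, SE 0.10, edgeR adjusted p = 0.000191). Of 8 leaf photosynthesis genes 2 fell and none rose, and of 3 defence genes PR5 rose and PR4 fell.

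**Figure D4:**
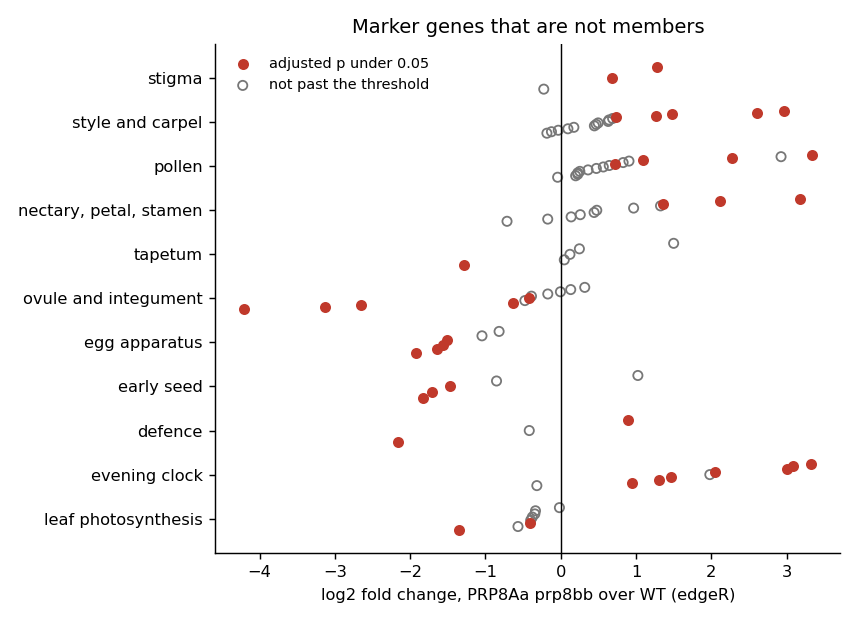
log2 fold change (PRP8Aa prp8bb over WT, edgeR) of each tested marker gene that is not a member, by list; filled red marks passed an adjusted p of 0.05 and open marks did not. Calls lie to the right of 0 in the stigma, style and carpel, pollen and nectary lists, and to the left of 0 in the ovule, egg apparatus and early seed lists.

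For most members, but not all, counts covered every annotated exon bin. Exon bins of their own were found for 62 members, of which 13 had a single bin. Of the 49 with more than 1 bin, 38 had counts in every bin in at least 1 PRP8Aa prp8bb library, and 33 had them in all 3. AT5G25970 had PRP8Aa prp8bb counts in only 2 of its 7 bins. In AT4G11290 the second bin had 159.2, 100.1 and 151.6 CPM per kb in PRP8Aa prp8bb replicates 1 to 3, against 12.5, 1.11 and 4.32 CPM per kb in WT replicates 1 to 3, and its other 3 bins showed the same separation. Fragments that span several bins add to each of them, so a short bin gains counts per kb. Of the members, 11 overlap another annotated gene, and the S-locus lectin kinase AT1G61550 has close relatives whose reads may be shared, so their counts are uncertain.

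**Figure D5:**
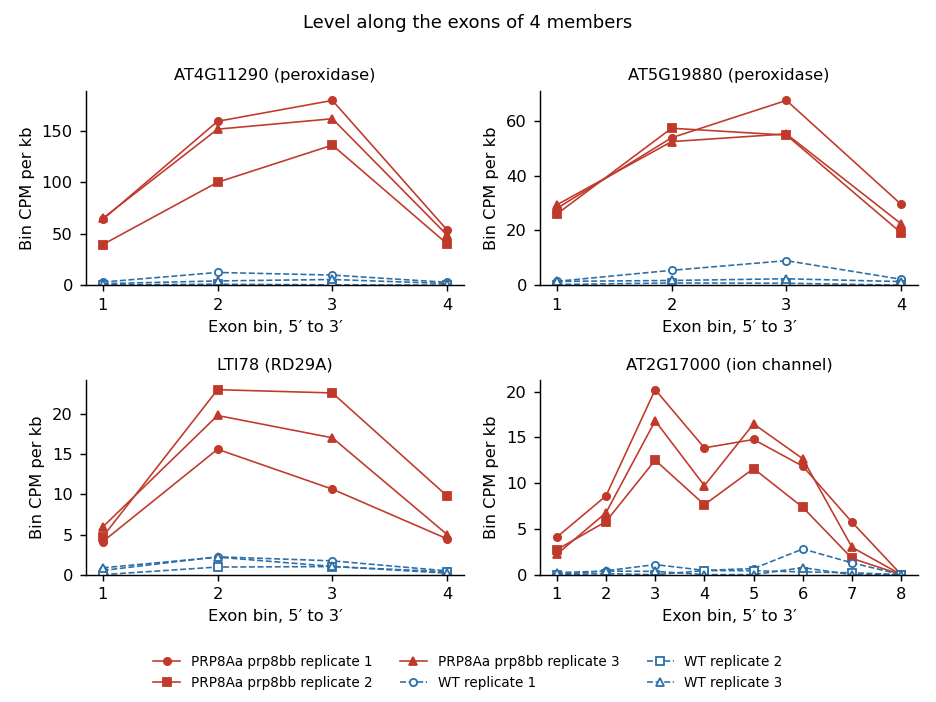
CPM per kb in each exon bin, 5′ to 3′, for 4 members; solid red lines are PRP8Aa prp8bb libraries and dashed blue lines WT libraries. PRP8Aa prp8bb libraries lie above WT libraries along the genes, except in the last bin of AT2G17000, which is at 0 in all 6 libraries.

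Members were found on all nuclear chromosomes, 16 on chromosome 1, 10 on chromosome 2, 9 on chromosome 3, 13 on chromosome 4 and 15 on chromosome 5. There were 7 pairs within 50 kb of each other. AT1G61550 lies 0.638 kb from MLO6, and AT1G21540 lies 2.25 kb from AT1G21550, each pair with no gene between. AT4G00910 lies 2.33 kb from AT4G00920 with 1 gene between. The other pairs were AT3G28770 and AT3G28840, AT5G11400 and CID5 (14.7 kb), AT4G13230 and AT4G13266 (29.0 kb), and AT3G50120 and CEJ1 (47.2 kb). The neighbours were not alike in level, since AT1G61550 averaged 2.096 CPM in PRP8Aa prp8bb ovules and MLO6 averaged 49.7 CPM. The member DGR1 (AT1G80240) lies 43.5 kb from PRP8A. It had 25 counts over the PRP8Aa prp8bb libraries and 2 over the WT libraries.

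The limit of 10% cut through a continuous range. Just inside it were AT5G53820 at 9.94%, AT5G43040 at 9.95% and AT5G55270 at 9.97%. Just outside were PRP4 at 10.14%, the sugar transporter gene STP9 at 10.3% and UNE15, for a late embryogenesis abundant protein, at 10.3%. PRP4, a gene for a proline-rich wall protein, lies 2.66 kb from PRP8B. It had 169.3, 305.6 and 267.7 CPM in PRP8Aa prp8bb replicates 1 to 3, against 32.7, 19.9 and 22.7 CPM in WT replicates 1 to 3. PRR5, left out by name, was at 10.9% and would not have met the limit.

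In the authors' deposited table of fold changes, 59 of the 63 members were found, and all 59 were higher in PRP8Aa prp8bb ovules, as were 779 of its 1543 genes. Since the members were chosen by this same contrast, their direction was fixed by the rule and is no independent result. In the authors' deposited table AT3G12000 had a log2 fold change of 5.15 and AT2G33850 of 4.78. Of the 63 members, 50 passed the filter on low counts of the edgeR fit and 13 did not.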

How the data were processed

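Libraries of stranded total RNA depleted of ribosomal RNA were sequenced as read pairs, per the labels' protocols. Trimmomatic, STAR, featureCounts of Subread 1.6.0, DESeq2 and TAIR10 are named per the submitters' processing notes. The authors deposited whole-number counts per gene (annotation release 37, strand setting 1, per the file headers) and counts per exon bin, both without normalization. Their deposited table of comparisons gives log2 fold changes and p-values adjusted for multiple tests. A table of introns names no sample and was not used. Whether strand setting 1 fits the library kit could not be checked without the reads.

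CPM is the count over the library's gene total. Gene counts were fitted with edgeR 4.0.16 in R 4.3.3 (TMM, filterByExpr, robust quasi-likelihood test, Benjamini-Hochberg adjusted p under 0.05), with no covariate. DESeq2 1.42.0 was an alternative. The fit was tested on simulated data. Replicate numbers of the groups did not pair the libraries. Replicates may share plants, so p-values measure only the spread between these libraries. Names, positions and promoters come from RefSeq TAIR10.1, which held 32548 of the genes, 99.95% with identical start and end, and all 63 members. Python 3.11.15 was used for the other steps.

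The members and the lists were chosen with earlier results of these data known. Members were named where they were AT3G12000 or AT2G33850, among the 15 highest, on a marker list, at 0 in all WT libraries, neighbours of one another, or next to the 10% limit, and for the lists up to 4 called genes of smallest p were named. Other members and genes, the product classes, the cold and DUF1216 genes and the motifs CCGAC and TATAAA were chosen after their values were seen.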

Additional observations from a re-analysis of the deposited data

How the results depend on the processing

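The size of the member set followed its rule. It held 20 genes at a limit of 5%, 148 at 20% and 167 with at least 1 count in each PRP8Aa prp8bb library. It held 51 genes with at least 10 counts, 63 to 68 with other library totals or WT replicate 1 counts halved, and 63 to 77 where 1 library was left out, and 45 of the 63 members were in all 6 of those sets. Exon bin counts in place of gene counts, an alternative chosen after seeing the data, gave 77 genes, 60 of them members. Calls over all genes numbered 250 to 692 higher and 181 to 707 lower where 1 library was left out, with 250 higher and 181 lower without PRP8Aa prp8bb replicate 3, and 257 higher and 198 lower without WT replicate 3. DESeq2, RLE factors, no filter on low counts, WT replicate 1 counts halved and organelle genes left out gave 599 to 772 higher and 537 to 719 lower. The replicate block gave 463 higher and 423 lower, and the correlations of same-numbered libraries were -0.05, -0.05 and 0.10. With 1 library left out, the stigma list had 1 to 2 genes called higher, style and carpel 2 to 6, pollen 1 to 8 and nectary, petal and stamen 0 to 4. The nectary list had 1 with the replicate block and 5 with WT replicate 1 counts halved. In the other lists, 31 of 120 recomputed counts moved by over 1.5 times. The cause was not tested. Members with 1 to 3 WT counts are limited by depth.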
